A study of Mus musculus with 3 samples.

Results

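The potassium channel genes described here are the 93 of 31055 listed genes whose symbols start with Kcn followed by a letter and a number, or with Kcnip, Kcnmb or Kcnab. The pore genes Kcnj3, Kcnj5, Kcnj6 and Kcnj9 were left out by the same rule, which used no measured value. Of the 93 genes, 88 are annotated as protein coding and 5 are noncoding transcripts named after a neighbouring channel gene (Kcnab3os, Kcnd3os, Kcnmb4os1, Kcnmb4os2 and Kcnq1ot1). Each had at least 1 count in the retained nuclei, and 16 had fewer than 100.

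Potassium channels let potassium ions leave the cell, and by doing so they set the resting potential, end the action potential and shape the interval to the next one. The pore subunits fall into families that open with voltage (Kcna, Kcnb, Kcnc, Kcnd, Kcnh and Kcnq), with intracellular calcium or sodium (Kcnn and Kcnt), near the resting potential (the inward rectifiers Kcnj), or at all voltages (the leak channels Kcnk). Further members carry no current of their own. Kcnf, Kcng, Kcns and Kcnv subunits join Kcnb pores and change their gating, Kcnip proteins bind Kcnd pores, Kcnab proteins bind Kcna pores, Kcnmb subunits bind the large calcium-activated pore, and Kcne subunits bind several voltage-gated pores. In the olfactory bulb (OB), mitral and tufted cells carry the output to the cortex, and granule and periglomerular cells inhibit them.

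Nuclei came from the OB of 3 adult male C57Bl/6 mice, with 1 library per mouse and no untreated group. All 3 mice had received a retrograde adeno-associated virus in the anterior olfactory nucleus and the piriform cortex, with a CAG promoter that drives a histone-linked GFP (H2B-GFP) in any infected cell type. Nuclei positive for GFP were sorted through a gate against doublets, and RNA was counted per nucleus with 3′ droplet sequencing. Because there is 1 group, every comparison below is between clusters of nuclei, with the mouse as the replicate.

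The mice gave 5845, 21105 and 4753 retained nuclei with a median of 7940, 8420 and 10568 unique molecular identifiers (UMIs, each 1 captured RNA molecule). Mice 1 and 2 shared 39 nucleus barcodes, mice 1 and 3 shared 8, and mice 2 and 3 shared 35. The deposited table numbers 22 clusters and 10 subclusters of projection neurons without naming them. Names were rebuilt here from marker genes with no potassium channel gene among them. Those of the projection neuron types were lists that the study chose on these same nuclei, and those of the broad classes were general cell type markers. A name such as M1 or astrocyte therefore stands for M1-like or astrocyte-like nuclei. Of the subclusters, 7 took a name (mitral M1, M2 and M3, tufted T1, and external tufted ET1, ET2 and ET4), and subclusters 2, 8 and 9 stayed unnamed. M1 of mouse 1 rests on 14 nuclei. The clusters were formed on the same counts, so p-values describe how far the clusters differ and are no test that the types exist. Levels are UMIs per 1000000 UMIs of the summed nuclei (CPM), and since the counts come from transcript ends, levels are compared between groups of nuclei and never between genes.

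Among the 7 projection neuron types nearly every well-counted channel gene varied. In 21 libraries, 1 per mouse and type, 65 of the 93 members had counts enough to be tested, and 57 of these differed among types at an adjusted p under 0.05 (edgeR's quasi-likelihood test with Benjamini-Hochberg adjustment over all genes). That is 87.7% of the tested members, beside 64.8% of the 14696 genes tested. The 8 that did not pass were Kcnd1, Kcnj10, Kcnj13, Kcnq1, Kcnq1ot1, Kcns3, Kcnu1 and Kcnv1. Kcnq1, for example, averaged between 134 CPM in ET4 and 176 CPM in M1.

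By family, all tested members differed among the types in Kcna (6 of 6), Kcnab (3 of 3), Kcnb (2 of 2), Kcnc (4 of 4), Kcnh (7 of 7), Kcnip (4 of 4), Kcnk (8 of 8) and Kcnmb (2 of 2). In Kcnd it was 2 of 3, in Kcnq 3 of 4, in the silent subunits Kcnf, Kcng, Kcns and Kcnv 5 of 7, in Kcnn, Kcnt and Kcnu 5 of 6, in Kcnj 4 of 6, and among the noncoding transcripts 2 of 3. None of the 5 Kcne genes had counts enough to be tested in these types.

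Each type was next set against the mean of the other 6, with a call at an adjusted p under 0.05 and a log2 fold change beyond 1. ET2 had the most members called higher, 19 of 65, beside 7.64% of all genes tested. ET4 had 13 higher (8.72% of all genes) and also the most lower, 21 (9.32%), among them Kcnv1, which had not passed the test over all types. M1 had 14 higher (7.81%) and 9 lower (4.04%), and M2 had 10 higher (6.83%) and 15 lower (5.29%). ET1 and M3 each had 10 higher (5.17% and 5.37% of all genes), with 9 lower in ET1 (3.44%) and 5 lower in M3 (3.2%). T1 had 4 higher (6.15% of the 65, near the 6.68% of all genes, and 7 members without a filter on low counts) and 18 lower (5.5%), and ET2 had 7 lower (6.18%). The median log2 fold change of the 65 members was -0.47 in T1 and -0.36 in ET4, where the median of all genes was 0.010 and 0.012. In the other 5 types the members' median lay between -0.097 and 0.18.

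**Figure D1:**
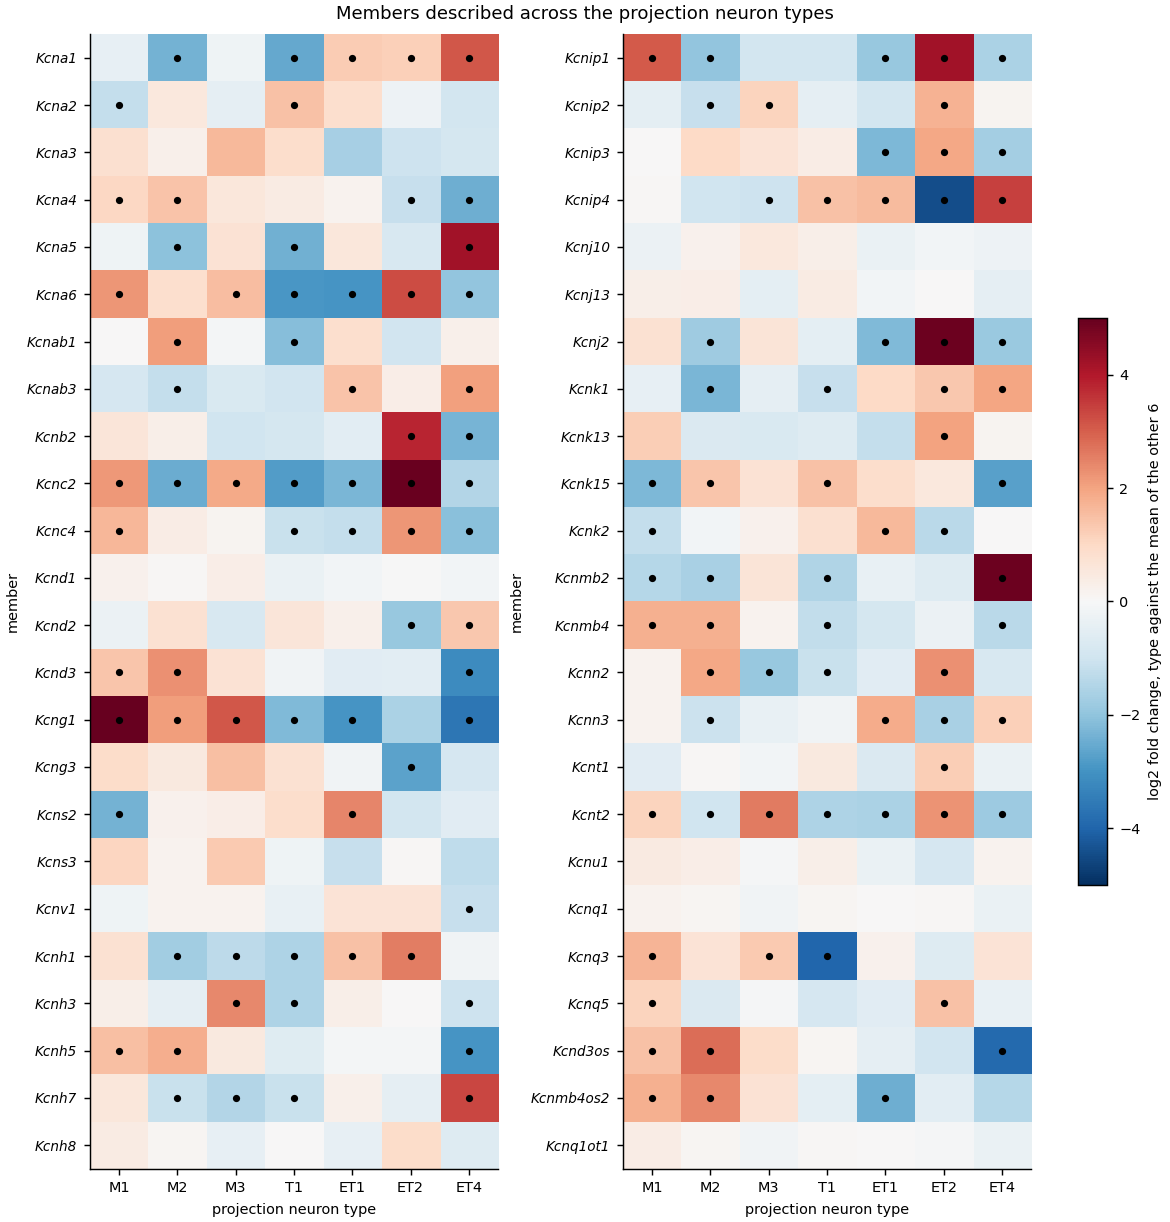
Colour gives the log2 fold change of 48 of the 65 tested members, those named in the text (rows), in each projection neuron type (columns) against the mean of the other 6 types, with the scale ending at 5 in both directions. A dot marks a call, and among the rows drawn the column of ET2 holds 16 calls of higher level and that of T1 holds 3.

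Mitral types (M1, M2 and M3) and tufted types (T1, ET1, ET2 and ET4) differed in members of several families, most clearly in the silent subunit gene Kcng1 and the pore genes Kcnd3 and Kcnh5. In the contrast of the 2 means, 15 of 65 members were higher in mitral types (5.53% of all genes tested) and 5 were higher in tufted types (3.81%). The 15 were Kcna3, Kcna4, Kcna6, Kcnc4, Kcnd3, Kcnd3os, Kcng1, Kcng3, Kcnh3, Kcnh5, Kcnmb4, Kcnmb4os2, Kcnq3, Kcns3 and Kcnt2. Of these, Kcns3 had not passed the test over all 7 types. The 5 were Kcna1, Kcnab3, Kcnh1, Kcnk1 and Kcnmb2. For Kcng1, Kcnd3 and Kcnh5, all 9 mitral libraries lay above all 12 tufted libraries. How often this holds over all genes was not counted. The median log2 fold change of the members was 0.071, beside -0.032 for all genes.

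Kcng1 encodes a silent subunit that pairs with Kcnb pores and lies at chr2:168260117-168281736 on the minus strand (GRCm38). Its level in M1 was 37.1, 75.9 and 85.1 CPM in mice 1, 2 and 3. M3 followed with 32.7, 16.8 and 32.2 CPM, and M2 with 11.2, 13.4 and 8.98 CPM. In T1, ET1, ET2 and ET4 no library exceeded 2.06 CPM, so the mitral and tufted libraries did not overlap. Against the tufted types the log2 fold change of Kcng1 was 5.19 ± 0.28 (SE, adjusted p = 1.2e-13), and M1 alone stood 5.17 ± 0.23 above the mean of the other types (5.3e-15). The lowest of the M1 values is that of the 14 nuclei of mouse 1, and without that library the M1 difference was 5.30. Without mouse 2 the M1 difference was 6.08 and the mitral difference 6.65. Kcng1 is also counted in inhibitory cluster 8, at 11.7 ± 2.42 CPM (SD, n = 3), and at no more than 0.81 CPM on average in the other 9 inhibitory clusters.

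Kcnd3, a pore of the fast inactivating A-type current (chr3:105452330-105674002, plus strand), ranked the types otherwise. M2 led with 280, 249 and 238 CPM, M1 had 210, 163 and 150 CPM, and M3 had 127, 129 and 118 CPM. No tufted library exceeded 74.8 CPM, and ET4 was lowest with 7.97, 14.7 and 11.2 CPM. The libraries of the 3 mitral types did not overlap with each other, and M2 stood 2.29 ± 0.11 above the mean of the other types (log2, adjusted p = 4.0e-14). The mitral difference of Kcnd3 was 2.19 ± 0.10 (1.0e-14). Kcnd3os, a noncoding transcript on the opposite strand whose first bases overlap the start of Kcnd3, was likewise highest in M2 (10.6 ± 1.34 CPM, SD, n = 3) and lowest in ET4 (0.19 ± 0.20 CPM). Whether the counting used the strand is not given in the sources used here, so reads of the shared stretch cannot be told apart.

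Kcnh5, a slowly activating voltage-gated pore of the ether-a-go-go family (chr12:74897220-75177332, minus strand), had 157, 137 and 142 CPM in M2 and 111, 141 and 125 CPM in M1. M3 had 85.3, 64.4 and 103 CPM, the tufted libraries at most 56.0 CPM, and ET4 6.38, 13.2 and 6.99 CPM. M1 and M2 overlapped for Kcnh5, and each mitral library exceeded each tufted one (log2 fold change 1.90 ± 0.11, adjusted p = 3.5e-13). Kcnq3, a pore of the M-current that restrains repetitive firing, was highest in M1 (600, 792 and 711 CPM) and M3 (615, 707 and 586 CPM), which overlapped. T1 stood at the bottom with 17.3, 30.4 and 19.8 CPM, below every library of the other 6 types (163 to 792 CPM), a log2 fold change of -3.95 ± 0.19 (1.3e-14). The tufted types thus split for Kcnq3, since ET4 had 371, 444 and 425 CPM and exceeded all 3 libraries of M2 (360, 362 and 321 CPM).

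**Figure D2:**
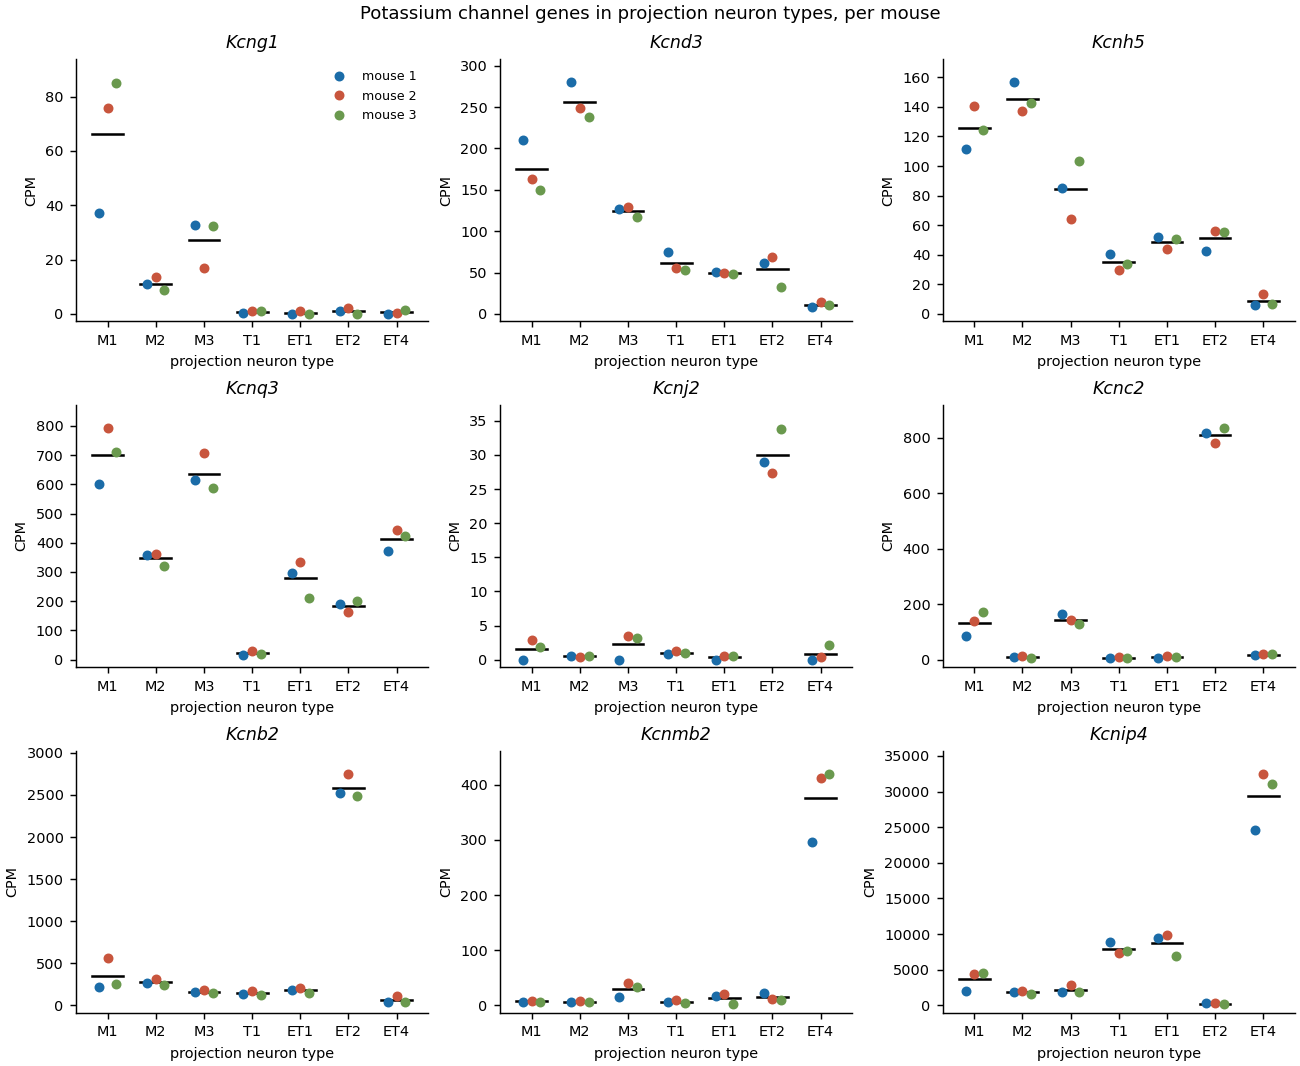
Points give the CPM of each mouse and black bars the mean of 3 mice for 9 members in the 7 projection neuron types, each panel with its own axis from 0. Kcng1, Kcnd3 and Kcnh5 are higher in all M libraries than in any T or ET library, Kcnq3 is low in T1, Kcnj2, Kcnc2 and Kcnb2 are high in ET2, and Kcnmb2 and Kcnip4 are high in ET4.

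ET2 nuclei were the highest of the 7 types in the pore genes Kcnc2, Kcnj2 and Kcnb2 and in the partner gene Kcnip1. Of the 19 members higher in ET2, 12 were also called higher in inhibitory than in projection neurons. That comparison is given further on and shares these libraries. The same held for 8 of 14 in M1, 7 of 10 in M3, 5 of 10 in M2, 4 of 13 in ET4, 3 of 10 in ET1 and 0 of 4 in T1. Of all members tested in that comparison it was 30 of 75, and of all genes 13.9%. The overlap was not counted over all genes called higher in each type. All 3 ET2 libraries lay above all others in members such as Kcna6, Kcnb2, Kcnc2, Kcnc4, Kcnh1, Kcnip1, Kcnip3, Kcnj2 and Kcnt1. How often this holds over all genes was not counted. Pores of the Kcnc family open at high voltage and allow fast spiking. Kcnc2 (chr10:112271121-112467024, plus strand) had 816, 781 and 833 CPM in ET2 and at most 170 CPM in any other library. Its log2 fold change was 4.94 ± 0.12 (adjusted p = 1.8e-20). The 4 other types apart from M1 and M3 held Kcnc2 at 7.2 to 18.5 CPM on average, while M1 and M3 had 132 ± 42.4 and 145 ± 17.4 CPM.

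Kcnj2, a strong inward rectifier that holds the resting potential (chr11:111066164-111076821, plus strand), had 28.9, 27.4 and 33.9 CPM in ET2. No other library exceeded 3.53 CPM, and the log2 fold change was 4.90 ± 0.30 (adjusted p = 8.1e-13). Kcnip1, a calcium-binding partner of Kcnd pores, had 307, 351 and 308 CPM in ET2. Next came M1 with 30.9, 175 and 167 CPM, and the other 5 types averaged at most 15.9 CPM. Kcnb2, a slow delayed rectifier, had 2528, 2748 and 2483 CPM in ET2, against at most 567 CPM elsewhere (3.81 ± 0.18, 4.0e-15). Kcna6, a low-threshold pore, had 38.2, 34.6 and 47.3 CPM in ET2 and at most 20.9 CPM in other libraries.

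ET2 was in turn lowest for the A-type pore gene Kcnd2 and its partner Kcnip4. Kcnip4 had 299.7, 328 and 182 CPM there, below every library of the other types (1561 CPM and above), a log2 fold change of -4.44 ± 0.28 (adjusted p = 2.4e-12). Kcnd2 had 587, 795 and 331 CPM in ET2 and at least 1033 CPM in every other library (-1.91 ± 0.17, 1.3e-09). Kcnip3, a further Kcnd partner, went the other way, with 183 CPM on average in ET2 and 14.0 CPM in ET1, the lowest type. UMIs of inhibitory markers were counted in the ET2 nuclei: the summed level of 8 inhibitory markers (among them Gad1, Gad2 and Meis2, all with UMIs) was 511, 863 and 171 CPM in mice 1, 2 and 3 (285, 554 and 152 CPM in M1), beside 62.2 to 554 CPM in the other 6 types and 1577 to 6237 CPM in the inhibitory clusters. Kcnq5 (77.5, 274 and 45.2 CPM in ET2) and Kcnk13 (2.31, 18.8 and 3.53 CPM) were highest in the same mouse, and the part of RNA from inhibitory neurons in these calls was not tested.

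ET4 nuclei were the highest of the types in Kcnip4 and Kcnd2, both lowest in ET2. Kcnip4 (chr5:48389502-49524907, minus strand) reached 24638, 32436 and 31012 CPM in ET4, and no library of another type exceeded 9945 CPM. The log2 fold change of Kcnip4 was 3.40 ± 0.16 (adjusted p = 4.1e-15), with T1 (7929 ± 812 CPM) and ET1 (8795 ± 1616 CPM) next and overlapping. Kcnd2, the pore it binds, was also highest in ET4 with 3716, 4334 and 4178 CPM, against at most 2568 CPM elsewhere (1.35 ± 0.13, 4.1e-09). The A-type pore gene Kcnd3 was lowest in the same nuclei, as given above, and so was Kcnb2, with 39.1, 115 and 41.9 CPM against at least 126 CPM elsewhere (-2.32 ± 0.28, 1.5e-07, and -2.97 without mouse 2). On the opposite strand 2 listed genes overlap Kcnip4, and reads shared with them cannot be told apart where the counting did not use strand.

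Kcnmb2, Kcnh7, Kcna5, Kcna1 and Kcnab3 were also highest in ET4, while other members of the same families, such as Kcnmb4, Kcnh3 and Kcnh5, were called lower there. Kcnmb2, a subunit that makes large calcium-activated channels inactivate (chr3:31902507-32200180, plus strand), had 296, 412 and 419 CPM in ET4 and at most 40.6 CPM in any other library (4.91 ± 0.17, adjusted p = 1.8e-17). Its pore gene Kcnma1, which the symbol rule does not take in, was lowest in the same type, at 379 ± 22.5 CPM in ET4 against 561 to 1664 CPM in the other libraries (-1.58 ± 0.10, 6.2e-13). The unnamed subcluster 8, with 126 nuclei, held Kcnmb2 at 847, 480 and 723 CPM. Kcnh7 had 5779, 6102 and 4788 CPM in ET4 and at most 1098 CPM elsewhere (3.32 ± 0.12, 3.7e-17). Kcna5, a delayed rectifier, was counted in ET4 at 45.5, 20.4 and 23.8 CPM and nowhere else among the types above 5.45 CPM (4.21 ± 0.30, 1.5e-11, and 4.88 without mouse 2). Kcna1, a low-threshold pore of axons, and its partner Kcnab3 were highest there too, at 80.4 and 83.7 CPM on average.

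The remaining types had shorter lists whose libraries stood clear of the others. In ET1 these were the silent subunit Kcns2, the small calcium-activated pore Kcnn3, which carries an afterhyperpolarising current, and the mechanosensitive leak channel Kcnk2. Kcns2 had 43.1, 33.1 and 44.2 CPM in ET1 against at most 16.9 CPM (2.42 ± 0.19, adjusted p = 1.8e-10), and Kcnn3 had 190, 219 and 216 CPM against at most 165 CPM (1.86 ± 0.10, 7.4e-14). Kcnk2 had 146, 169 and 188 CPM against at most 102 CPM (1.61 ± 0.12, 1.4e-10). M2 had Kcnd3 and Kcnd3os, already described, and Kcnab1, a Kcna partner, at 195, 156 and 161 CPM against at most 113 CPM (2.07 ± 0.12, 8.8e-13). M3 had Kcnh3 alone, at 47.2, 45.9 and 32.2 CPM against at most 18.6 CPM (2.40 ± 0.36, 2.3e-05). The 8 inhibitory markers summed to 358, 547 and 209 CPM in M3, inhibitory neurons had Kcnh3 at 79.4 to 90.6 CPM, and the part of RNA from inhibitory neurons in the M3 calls was not tested. T1 had Kcna2, a low-threshold pore of axons and axon initial segments, at 340, 294 and 339 CPM against at most 282 CPM (1.47 ± 0.11, 4.2e-11). T1 was also lowest for Kcnab1, at 13.5, 17.7 and 11.7 CPM against at least 24.3 CPM (-2.11 ± 0.17, 1.4e-10). Kcnn2, the relative of Kcnn3, was highest in ET2 (198 ± 42.1 CPM) and M2 (137 ± 23.5 CPM) and lowest in M3, at 18.2, 19.4 and 14.5 CPM (-1.89 ± 0.30, 4.2e-05).

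A list of 18 partner and pore genes outside the symbol rule was counted beside the members. Of these, 13 had counts enough in the projection neuron types, and all 13 differed among the types, beside 64.8% of all genes tested. The auxiliary subunits of Kcnd pores, Dpp6 and Dpp10, were both lower in ET1, Dpp6 was higher in M1, and Dpp10 was higher in ET4 and M3 and lower in ET2. Mitral types were higher than tufted types in 3 of the 13 (Abcc8, Cntnap2 and Lrrc55) and lower in none, where 5.53% of all genes were higher and 3.81% lower.

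Projection and inhibitory neurons of the same mice were then compared, each summed over its nuclei (6 libraries). The projection side held the 6346 nuclei of the 7 named types and left out the 1158 nuclei of the unnamed subclusters 2, 8 and 9, in which the 8 inhibitory markers summed to 172 to 2019 CPM. Of 75 members tested, 30 were higher in inhibitory neurons, beside 13.9% of the 18088 genes tested, and 14 were higher in projection neurons, beside 15.4%. The 3 libraries of one side did not overlap with those of the other in the called members. How often this holds over all called genes was not counted. The median log2 fold change of the members, projection minus inhibitory, was -0.61, where that of all genes was 0.0097. By family, the leak channels Kcnk gave 5 higher in inhibitory neurons and 1 in projection neurons, the Kcnh family 5 and 1, the Kcnn, Kcnt and Kcnu genes 3 and 1, and the inward rectifiers Kcnj 3 and 0. Of 7 Kcna genes tested 3 were higher in projection and 2 in inhibitory neurons, and of 4 Kcnc genes 3 and 1. Differences between families were not tested.

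The largest differences toward inhibitory neurons were in Kcnq5, Kcnk13, Kcnh1, Kcnh3 and the scarce Kcnmb1. Kcnq5, an M-current pore, had 1340, 1437 and 1385 CPM in inhibitory neurons and 30.3, 83.2 and 38.4 CPM in projection neurons (log2 fold change -4.69 ± 0.39, adjusted p = 3.2e-05). Kcnk13, a leak channel, had 70.9, 84.1 and 75.3 CPM against 1.12, 5.18 and 1.87 CPM (-4.63 ± 0.46, 8.3e-05, and -5.50 without mouse 2). Kcnh1 had 112, 112 and 113 CPM against 5.37, 7.42 and 6.12 CPM (-4.07 ± 0.14, 1.1e-06), and Kcnh3 had 86.3, 90.6 and 79.4 CPM against 5.37, 9.76 and 4.61 CPM (-3.59 ± 0.27, 1.9e-05). Mouse 2 had the highest value of all 4 genes in projection neurons. With the unnamed subclusters counted as projection neurons, a choice made after seeing the data, the log2 fold changes were smaller but kept their calls, at -3.45 for Kcnq5, -3.44 for Kcnk13, -3.14 for Kcnh1 and -2.96 for Kcnh3. In the same projection neuron libraries the 8 inhibitory markers summed to 139, 350.5 and 97.4 CPM, so that mouse 2 was highest here too, and the part of RNA from inhibitory neurons in these low values was not tested.

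Kcnmb1, which binds the large calcium-activated pore in smooth muscle, had no UMI in the projection neuron libraries and 254 in the inhibitory ones (1.98, 1.28 and 1.06 CPM). The gene lies within Kcnip1 on the opposite strand. Against a floor of 3 counts over the projection neuron group it was at least 49.8-fold higher in inhibitory neurons. The unnamed subcluster 2 held 5 UMIs of Kcnmb1, all in mouse 2. Kcnb2 had 3401, 4808 and 3915 CPM in inhibitory neurons and 265, 451 and 297 CPM in projection neurons.

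Toward projection neurons the largest differences were in Kcna10, Kcna2, Kcng1, Kcnk15 and Kcnip4. Kcna2 had 240, 182 and 212 CPM in projection neurons and 24.5, 18.4 and 21.1 CPM in inhibitory neurons (3.39 ± 0.14, adjusted p = 1.8e-06). Kcnip4 had 7574, 8395 and 6127 CPM against 817, 807 and 1185 CPM (3.05 ± 0.20, 9.3e-06). For Kcnip4 both sides pool unlike groups, so the difference holds for the sums and not for each group. Among projection neurons ET4 was far above these sums, and ET2 lay below every summed inhibitory library. Inhibitory cluster 17, described below, in turn exceeded every summed projection library. Kcnk15, a poorly conducting leak channel, had 13.2, 8.21 and 9.89 CPM against 1.34, 1.30 and 1.10 CPM (3.11 ± 0.21, 1.3e-05). Kcna10 was scarce on both sides, with 78 UMIs summed over the projection libraries and 8 over the inhibitory ones (4.06 ± 0.52, 0.00033). Kcnn2 and Kcnn3, close relatives, lay on opposite sides: Kcnn2 averaged 322 CPM in inhibitory and 68.9 CPM in projection neurons, and Kcnn3 13.2 and 76.8 CPM. Kcnd3 and Kcnh5, which separate mitral from tufted types, were both higher in inhibitory neurons than in the summed projection neurons (295 against 121 CPM and 243 against 77.4 CPM). Of 16 partner genes tested (beside 13.9% and 15.4% of all genes, as above), Amigo1, Amigo2, Dpp6, Kcnrg, Lgi1 and Lrrc38 were higher in inhibitory neurons and Abcc8, Cntn2, Cntnap2 and Lrrc55 in projection neurons.

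**Figure D3:**
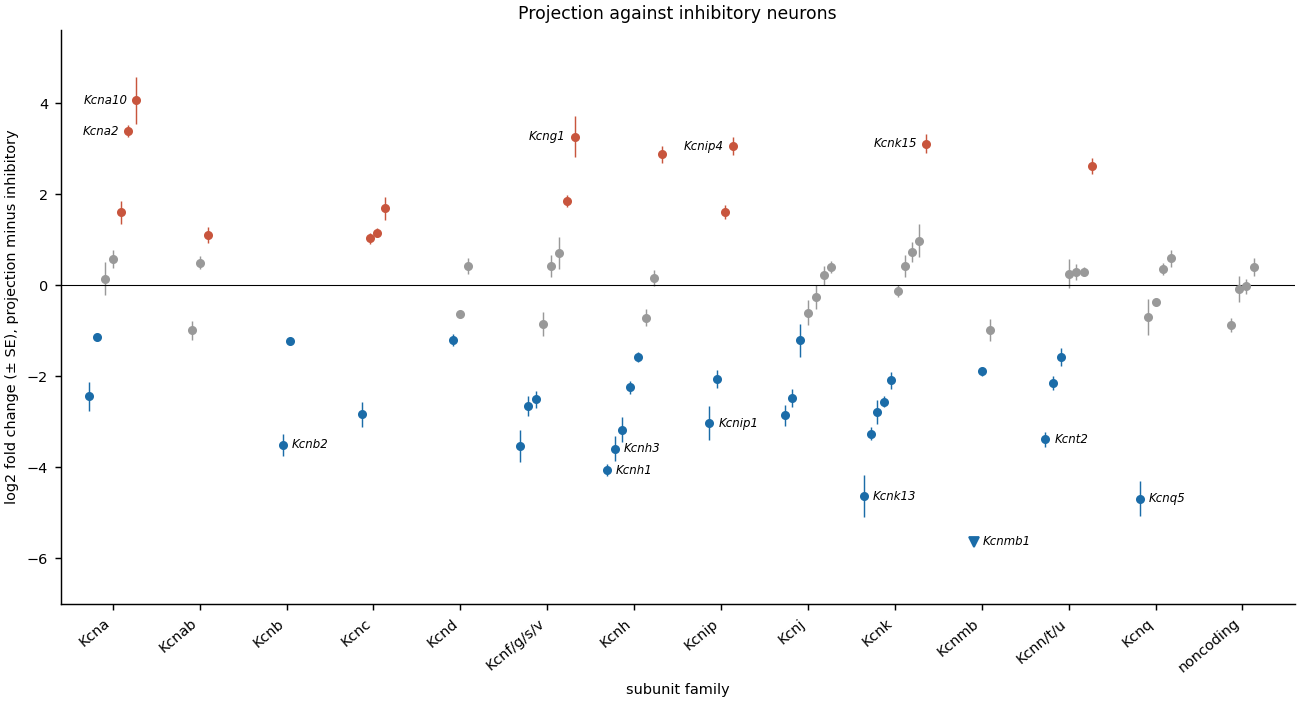
Each point is the log2 fold change with its SE of 1 of 75 tested members, projection minus inhibitory neurons, sorted by subunit family. Red marks 14 members higher in projection neurons, blue 30 higher in inhibitory neurons and grey the members with no call, and the triangle places Kcnmb1 at its bound because no UMI was counted in projection neurons.

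Inhibitory neurons were not uniform. Over the 10 clusters named inhibitory (30 libraries), 64 of 68 members tested differed among clusters, beside 59.2% of the 14722 genes tested, and the highest cluster differed from gene to gene. The name is least certain for cluster 10, whose summed inhibitory markers rested mostly on Meis2 (4243 CPM). Its Gad1 and Gad2 stood at 387 and 144 CPM, beside 317 and 147 CPM in astrocytes. Slc32a1 was at 160 CPM there, beside 86.6 CPM in astrocytes. Cluster 12 likewise had Gad2 at 142 CPM, with Gad1 at 704 CPM. For the 11 genes described next the adjusted p of the F-test lay between 4.1e-21 (Kcnip2) and 3.1e-07 (Kcnb2). Kcnd2 had 17525, 14617 and 20954 CPM in cluster 10, beside cluster means of 733 to 4174 CPM in the other 9. Kcnip2, a Kcnd partner best known from heart and brain A-type currents, was high in the same cluster (421, 275 and 487 CPM) and in cluster 7 (398, 235 and 366 CPM), and averaged at most 14.4 CPM in the other 8. Cluster 7, in contrast, held Kcnd2 at 1267, 1499 and 895 CPM.

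Kcnip4 was concentrated in cluster 17, with 10701, 9423 and 9825 CPM, and in cluster 8, with 3533, 2685 and 5200.5 CPM. The other 8 clusters averaged between 65.4 and 1098 CPM, and Kcnd2 was lowest in cluster 17 (733 ± 156 CPM). Kcnmb2 reached 1406, 1051 and 1434 CPM in cluster 7 and 861, 808 and 1027 CPM in cluster 15. Cluster 8 followed with 118 ± 47.3 CPM, and the other 7 clusters averaged 2.77 to 23.9 CPM. Cluster 15 was also where Kcnmb1 was counted most, at 26.5, 25.9 and 19.4 CPM from 72 UMIs.

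Kcnt2, a sodium-activated pore, had 842, 619 and 526 CPM in cluster 12 and averaged at most 120.0 CPM in the other clusters. The gene 4930590L20Rik overlaps Kcnt2 on the opposite strand and was among the leading genes of cluster 12. Reads shared by these genes cannot be told apart where the counting did not use strand. Kcnc2 had 3353, 2865 and 3118 CPM in cluster 6, next to which clusters 17, 15 and 8 had 821 ± 98.4, 739 ± 160 and 662 ± 268 CPM. Kcnh8, a slow voltage-gated pore, had 285, 203 and 234 CPM in cluster 3 and at most 66.4 CPM on average elsewhere. Kcnk13 was highest in cluster 1 (154, 178 and 199 CPM) and 4.63 to 106 CPM on average in the other 9.

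Kcnb2 and Kcnq5 were counted in every library of the 10 clusters. Kcnb2 averaged 5925, 5212, 5032 and 3765 CPM in clusters 0, 1, 12 and 3, and 401 to 2183 CPM in the other 6. In cluster 15 it had 234, 957 and 13.0 CPM, and in cluster 0 it had 5051, 6460 and 6264 CPM. Kcnq5 averaged 2076, 1904 and 1478 CPM in clusters 3, 0 and 1 and 175 CPM in cluster 15, where its values were 161, 346 and 16.2 CPM. Mouse 2 was highest for both genes in cluster 15, and whether RNA from other nuclei adds to these values was not tested.

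**Figure D4:**
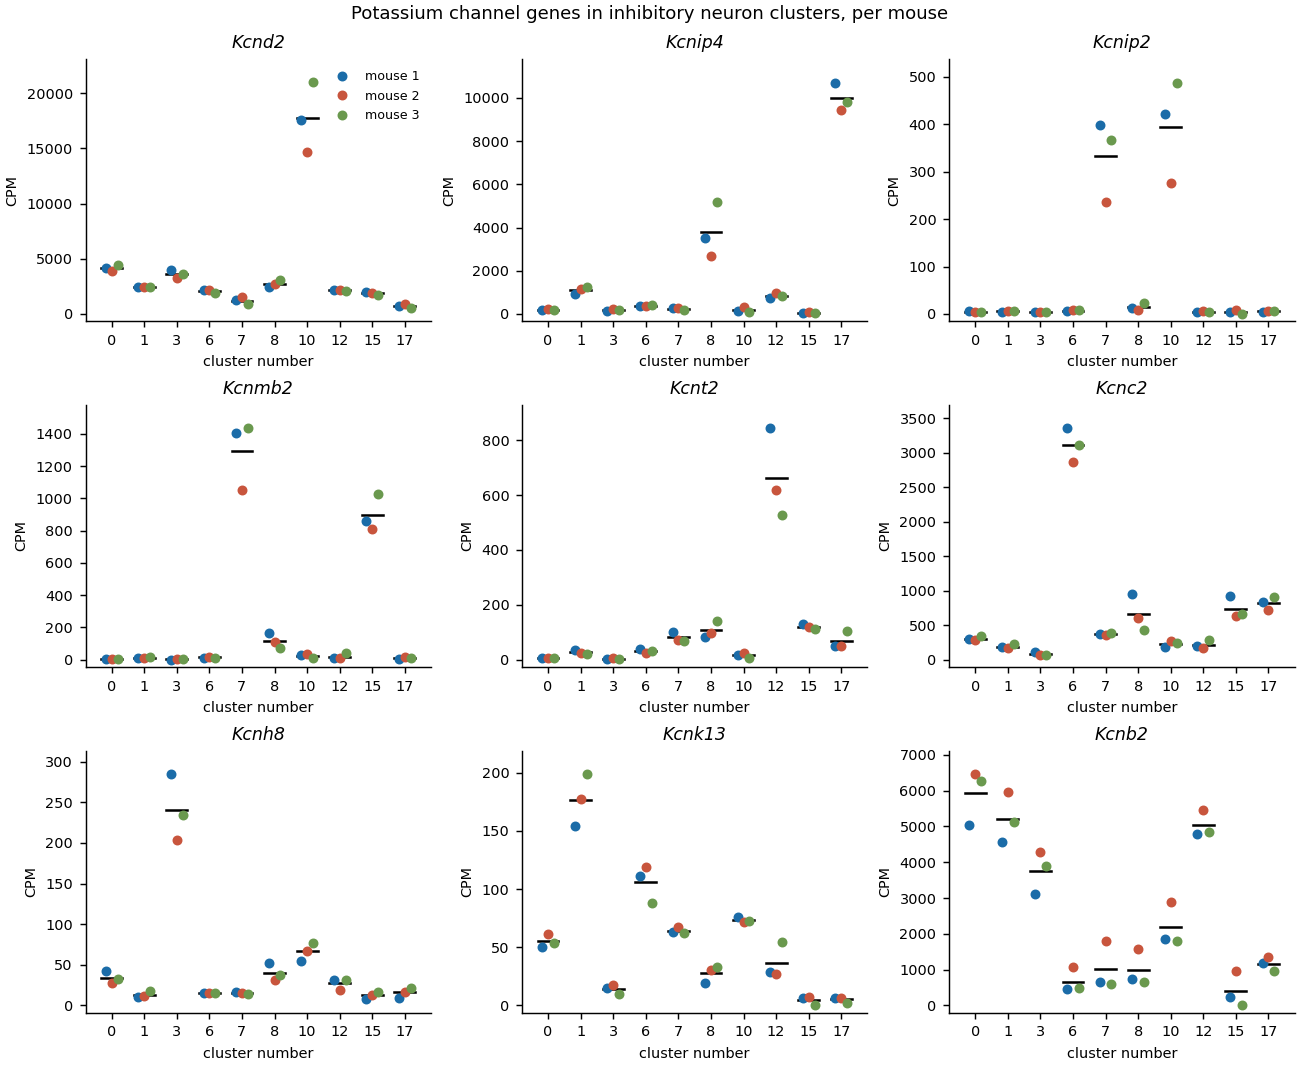
Points give the CPM of each mouse and black bars the mean of 3 mice for 9 members in the 10 clusters named inhibitory, each panel with its own axis from 0. Kcnd2 peaks in cluster 10, Kcnip4 in cluster 17, Kcnmb2 in clusters 7 and 15, Kcnt2 in cluster 12, Kcnc2 in cluster 6 and Kcnh8 in cluster 3.

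Of the 7 classes, inhibitory neurons had the most members called higher. Against the mean of the other classes (7 classes, 21 libraries, 58 members tested), 29 members were higher in inhibitory neurons (8.89% of the 12765 genes tested) and 19 in projection neurons (14.2%), a count that was 11 with scaling by library size alone. Members lower numbered 4 in inhibitory neurons (10.8%) and 18 in projection neurons (13.1%). Astrocytes had 12 (10.8%), ensheathing glia 8 (12.8%), oligodendrocytes 7 (9.13%), oligodendrocyte precursors (OPCs) 7 (7.69%) and microglia 3 (8.12%) higher. Lower members numbered 2 in astrocytes (3.85%), 5 in ensheathing glia (4.1%), 7 in oligodendrocytes (7.74%), 4 in OPCs (3.45%) and 4 in microglia (4.95%). Of the higher members, 5 of 12 in astrocytes (such as Kcnc4, Kcnd3 and Kcnt1), 1 of 8 in ensheathing glia, 3 of 7 in oligodendrocytes, 4 of 7 in OPCs (such as Kcnh8 and Kcnt2) and 1 of 3 in microglia (Kcnk13) were also called higher in a class of neurons. This overlap was not counted over all genes called higher in the glial classes, so it is no trait of the members. The median log2 fold change of the members was 1.20 in inhibitory neurons and 0.32 in projection neurons, and between -0.49 and -0.065 in the 5 glial classes. Medians of all genes were 0.056 and 0.052 in the neurons and between -0.15 and 0.0064 in the glia.

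The inward rectifier Kcnj10, which glia use to take up potassium, was shared by 4 glial classes. It had 151, 91.6 and 134 CPM in astrocytes, 124, 63.5 and 79.7 CPM in ensheathing glia, 125, 97.9 and 92.9 CPM in oligodendrocytes and 79.7, 52.6 and 57.1 CPM in OPCs, and averaged 1.73 and 2.12 CPM in projection and inhibitory neurons. Its partner Kcnj16 was shared by only 3 of these, with 103, 64.2 and 103 CPM in astrocytes, 68.8, 58.0 and 63.8 CPM in ensheathing glia and 28.1, 64.8 and 57.1 CPM in OPCs. Oligodendrocytes had 4 UMIs of Kcnj16 in all (6.39, 1.20 and 0 CPM), below these 3 classes in every mouse.

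Astrocyte libraries lay above those of the 6 other classes in Kcne1l, an auxiliary subunit, in the high-voltage pore Kcnc4, in the sodium-activated pore Kcnt1 and in Kcnk2. Kcne1l had 15.8, 18.8 and 12.8 CPM against at most 5.99 CPM (7.66 ± 0.54, adjusted p = 7.9e-10, and 4.75 with DESeq2), and Kcnc4 had 27.3, 19.4 and 33.2 CPM against at most 4.96 CPM (4.25 ± 0.34, 2.1e-10). Without mouse 1 the difference of Kcnc4 was 5.25, without mouse 2 it was 6.02, and in nuclei with at least 1500 genes 5.45. Kcnt1 had 107, 75.9 and 127 CPM against at most 56.1 CPM (2.05 ± 0.21, 1.9e-08, and 2.80 without mouse 2), and Kcnk2 had 195, 209 and 257 CPM against at most 126 CPM. Both were as high or higher in cluster 18, which was outside the fit, at 131, 103 and 95.6 CPM for Kcnt1 and 351, 232 and 296 CPM for Kcnk2, and ET2 alone had Kcnt1 at 96.0, 85.7 and 128 CPM. Ensheathing glia lay above the other classes in the intermediate calcium-activated pore Kcnn4 (70.3, 35.3 and 73.1 CPM against at most 16.2 CPM, 7.20 ± 0.35, 3.3e-14). Without mouse 2 the difference of Kcnn4 was 8.19, and with DESeq2 6.24. The second highest class for Kcnn4 was microglia, at 10.5 ± 5.48 CPM from 6 UMIs.

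Oligodendrocytes were highest in Kcna1, with 505, 291 and 314 CPM against at most 131 CPM in the other libraries (3.24 ± 0.29, adjusted p = 1.3e-09, and 3.84 without mouse 2). OPCs lay above the other classes in Kcnt2 (113, 131 and 163 CPM against at most 53.0 CPM, 3.13 ± 0.36, adjusted p = 2.5e-07, and 5.28 without mouse 2) and Kcnh8 (145, 139 and 236 CPM against at most 64.7 CPM), with inhibitory neurons pooled over their 10 clusters. Single inhibitory clusters were higher, cluster 12 for Kcnt2 (842, 619 and 526 CPM) and cluster 3 for Kcnh8 (285, 203 and 234 CPM, overlapping with OPCs), and the OPCs of mouse 3 are 10 nuclei. Microglia lay above the other classes in the leak channel Kcnk6, with 114, 51.5 and 19.9 CPM from 40 UMIs against at most 2.10 CPM (7.74 ± 0.61, 1.5e-09, and 5.99 with DESeq2). Kcnk13 was higher in microglia (162, 130 and 94.7 CPM) and in oligodendrocytes (51.1, 97.9 and 136 CPM), which overlapped, and inhibitory cluster 1 had 154, 178 and 199 CPM.

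Cluster 18, of 173 nuclei, was not part of the fit. It carried all 6 vascular markers (such as Flt1 and Rgs5) and took the vascular name by the rule. Cldn5 and Vtn were higher in ensheathing glia (492 and 881 CPM) than in cluster 18 (229 and 807 CPM). None of the 6 was among the 10 leading genes of cluster 18. Of these genes, Dcn, Mgp and Slc6a13 are known from fibroblasts and Ly6c1 and Slco1a4 from endothelium. Cluster 18 is therefore given by its number, a choice outside the naming rule. It had Kcnj8, the pore of vascular ATP-sensitive channels, at 119, 2.76 and 100.3 CPM from 43 UMIs, while the other classes averaged at most 0.50 CPM. Its partner Abcc9 had 59.5, 19.3 and 47.8 CPM, the leak channel Kcnk5 had 53.6, 17.9 and 43.0 CPM, and Kcne4 had 29.8, 8.28 and 28.7 CPM. Mouse 2, which gave most of the nuclei of this cluster (108), was lowest for all 4.

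Neuronal members were counted in glia as well. Kcnb2 had 815, 1672 and 665 CPM in astrocytes, 895, 1635 and 357 CPM in ensheathing glia and 118, 1676 and 57.2 CPM in oligodendrocytes. The 8 inhibitory markers summed to 1428, 2298 and 1139 CPM in the same astrocytes, 1366, 1893 and 659 CPM in ensheathing glia and 680, 1920 and 186 CPM in oligodendrocytes, so that for both measures the mice had the same order within each class. The part of RNA from other nuclei in the glial levels of members that neurons also carry, such as Kcnt1, Kcnc4, Kcnt2, Kcnh8 and Kcnk13, was not tested.

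**Figure D5:**
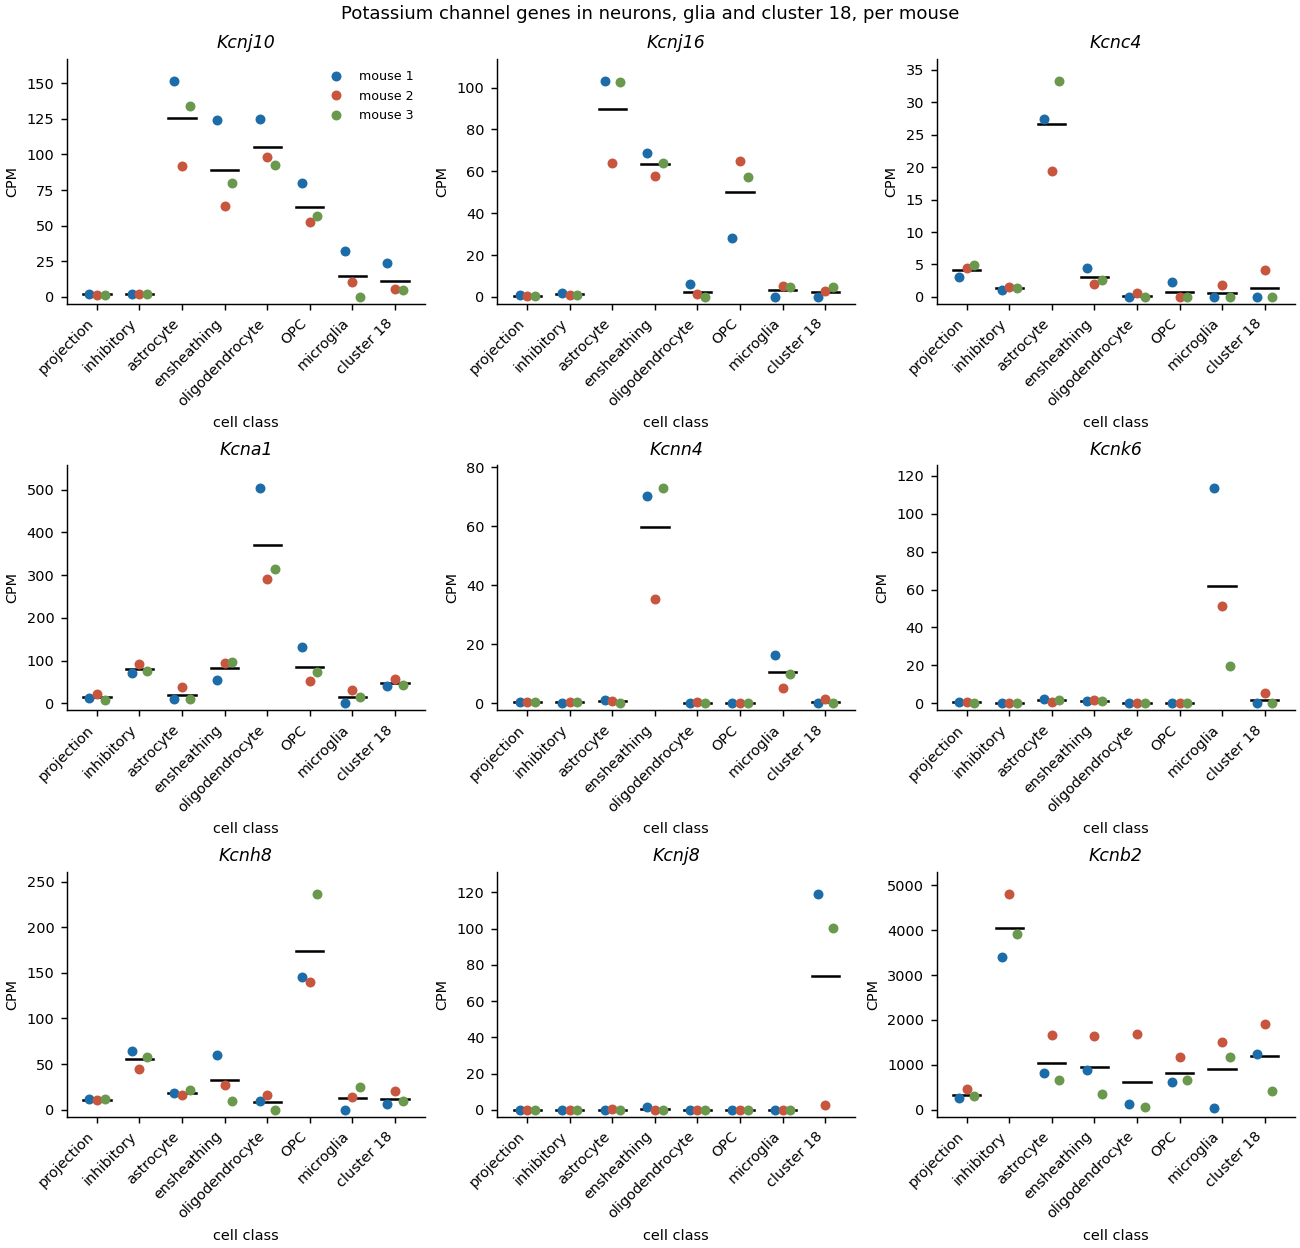
Points give the CPM of each mouse and black bars the mean of 3 mice for 9 members in 7 classes and in cluster 18, each panel with its own axis from 0. Kcnj10 is spread over 4 glial classes, Kcnj16 over 3, and Kcnc4, Kcna1, Kcnn4, Kcnk6 and Kcnj8 are each highest in 1 of the groups drawn, Kcnh8 is highest in OPCs with inhibitory neurons pooled, and Kcnb2 is counted in every class.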

How the data were processed

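RNA of single nuclei was measured in the OB of 3 mice, and per the labels and the study's methods the authors mapped and counted 10x Chromium 3′ libraries with Cell Ranger and clustered the nuclei with Seurat. The deposited matrices hold UMI counts per gene and nucleus (unit counts, not normalized), and the deposited metadata list each retained nucleus with its cluster, subcluster, gene number and percent of mitochondrial counts. The authors kept nuclei with at least 1000 genes and at most 5% mitochondrial counts. Whether introns and strand entered the counting is not given in the sources used here. Another listed gene overlaps 34 of the members, and shared reads may enter their counts. No doublet caller was run here, and the sort gate against doublets was the authors'.

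UMI counts were summed per mouse and cluster or type (at least 10 nuclei) and tested with edgeR 4.0.16 in R 4.3.3, by the quasi-likelihood test with TMM scaling and edgeR's filter on low counts, fitted over all genes with Benjamini-Hochberg adjustment. A call needs an adjusted p under 0.05, and between groups also a log2 fold change beyond 1. Tables and plots were made with Python 3.11.15, pandas 2.3.3 and matplotlib 3.10.9. The fits were tested on simulated data. Summed libraries held 161593 to 16961469 UMIs for types and 61554 to 128789498 for classes, and low totals limit the scarce genes.

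A marker counted as carried at 25% or more of its highest cluster level (50% for subclusters). A cluster took the name of the list with the largest carried share, with at least 3 markers carried, unless markers of another list led its genes or its UMI number was low and no marker led. Cluster 18, vascular by this rule, is given by its number. Members, lists and tests were chosen with earlier results of these data known. Named genes were those the study names (Kcng1, Kcnd3, Kcnq3, Kcnj2 and Kcnh5), up to 3 per type or class and 5 per direction in the 2-sided contrasts with the largest fold change among called members whose libraries did not overlap, the 5 with the largest ratio of group means (5 CPM added) in each F-test, the 10 with the most UMIs, and 2 to 4 per family. Other members given with values, those of cluster 18 among them, were chosen after their values were seen. A few members are counted in the totals but not reported here by name. Gene positions were read from the GENCODE M21 annotation (GRCm38). Libraries of the same mouse come from the same animal, and their deviations from the type means correlated at a mean r of 0.108 over 63 pairs, against -0.0535 over 126 pairs of different mice. Alternatives were DESeq2 1.42.0, library size alone, no filter, the mouse as a block, each mouse left out, nuclei with at least 1500 genes, and 4 chosen after seeing the data.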

Additional observations from a re-analysis of the deposited data

How the results depend on the processing

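All 500 alternative values of 53 fold changes of single genes kept their direction and their side of the threshold. Most of the 53 were picked as the largest among called members whose libraries did not overlap, so they do not speak for calls near the threshold. Of the alternative counts of called members, 187 of 189 stayed within 1.5 times the main count. The exceptions among these counts were the members higher in T1, 7 without a filter on low counts where the main count is 4, and the members higher in projection neurons than in the other classes, 11 when scaled by library size alone where the main count is 19. Library size alone moved the median log2 fold change of all genes to -0.27 in projection neurons, 0.18 in microglia, 0.16 in M3, 0.13 in ET4, -0.15 in oligodendrocytes and -0.12 in M2 and T1. With the mouse as a replicate block, 59 members differed among the types, 16 were higher in mitral types and 32 in inhibitory neurons, beside 57, 15 and 30 without it, and none of the 53 fold changes lost its call. With 1 mouse left out, 49 to 52 members differed among the types. Of the alternatives chosen after seeing the data, leaving out the M1 library of mouse 1 gave 58 members differing among types, leaving out clusters 10 and 12 gave 62 members differing among inhibitory clusters, and cluster 18 as a class gave 18 members higher in projection neurons. Counting the unnamed subclusters as projection neurons gave 29 members higher in inhibitory and 13 in projection neurons. Microglia, OPCs and oligodendrocytes rest on few nuclei (146, 151 and 282), and scarce members such as Kcnk6 (40 UMIs in microglia) are limited by depth.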
